A study of Branchiostoma lanceolatum with 8 samples.

Results

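Cadherins, cell junction proteins and epithelial polarity proteins were followed at the RNA level in ectodermal explants from Branchiostoma lanceolatum, an amphioxus and thus a chordate without a backbone. Genes were taken by name alone: every identifier whose gene name, as paired with it by the authors, belongs to the cadherin and protocadherin, FAT, Dachsous, CELSR, tight junction, Par, Crumbs, Scribble, catenin, AHNAK, GRHL or ESRP families. This gave 66 genes of 18998 in the deposited tables, under 29 names. Of these, 64 were in the table for 11 hours post fertilization (hpf), 57 in the table for 19 hpf and 55 in both. No gene analysed here was named CDH1, CDH2, OCLN, EPCAM or DSP, and none carried a claudin or plakophilin name.

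Explants of ectoderm, the outer layer of the embryo, were compared between a control group and a group given Activin, a signalling protein of the TGF-beta family, as a human recombinant protein at 50 ng/mL. Each treatment was sampled at 11 hpf and at 19 hpf, which makes 4 groups of 2 libraries, 8 in all. Each library pooled explants from different fertilizations, so p-values measure how such pools vary. RNA was poly(A)-selected from bulk tissue, so fewer cells of a type and less RNA per cell cannot be told apart in any value given here.

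Cadherins hold neighbouring cells together through repeats outside the cell, and catenins tie their tails to actin. In an epithelium the Crumbs and Par proteins mark the apical side, while Scribble, DLG and LLGL proteins act on the basal and lateral side. FAT and Dachsous cadherins, the kinase Four-jointed (FJX1) and the CELSR cadherins orient cells within the sheet, as worked out mainly in Drosophila and the mouse. Grainyhead-like (GRHL) transcription factors and the splicing regulator ESRP maintain the epithelial state in vertebrates. When ectoderm turns to neural tissue or to migrating mesoderm in vertebrate embryos, the set of cadherins it carries is commonly exchanged.

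Each time has its own table by the authors, and all values come from these deposited tables: a mean normalized count, a log2 fold change, its standard error (given after ±) and a Wald test with Benjamini-Hochberg adjustment over 15793 genes at 11 hpf and 16733 at 19 hpf. A gene is called here when its adjusted p is below 0.05, two-sided. The numerator of the fold change is not named in the headers, and positive values are read as higher in Activin from LEFTY2 (6.39 ± 0.53 at 11 hpf), CHRD (4.59 ± 0.43) and GSC (2.77 ± 0.58), which Nodal and Activin signals induce in other chordates. Values per library were not analysed here. The group means given below, in normalized counts, were computed back from each gene's overall mean and its fold change, with equal weight for both groups; they are not divided by gene length, so they are not compared between genes, and the times were normalized separately. Standard errors of the genes studied ran from 0.33 to 2.94 at 11 hpf, with a median of 0.51. At 19 hpf they ran from 0.30 to 2.12, with a median of 0.45. Depth per library is unknown.

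The explants carried ectodermal transcripts. In controls the 4 genes found of the epidermal list (KRT8, GATA2, DLX1 and TFAP2D) summed to a rebuilt mean of 314375 normalized counts at 11 hpf. In Activin they summed to 10198, and all 4 fell. At 19 hpf all 5 epidermal genes fell, from 774007 to 36652. Most of the control sums came from KRT8 (BL15060), with 257288 in control and 4415 in Activin at 11 hpf. At 19 hpf it held 739980 and 31113, with a wide error (-4.57 ± 1.52). Motile cilia markers also fell, 10 of 12 at 11 hpf, from a summed 40953 to 2916, and 12 of 13 at 19 hpf, from 79163 to 6119. DNAH9 (BL14190), of the same list, was called higher at both times, at 3.29 ± 0.92 and 3.23 ± 1.16. Neural markers rose, 7 of 8 at each time, from 14250 to 54811 at 11 hpf and from 14115 to 58142 at 19 hpf. Mesoderm markers rose in 2 of 4 and 4 of 6 genes, from 771 to 2274 and from 610 to 6115. Of 4 endoderm markers 1 rose and 1 fell at 11 hpf, with sums of 289 and 615, and 2 rose and 1 fell at 19 hpf, with sums of 4032 in control and 1990 in Activin. The gene that fell at 19 hpf, GATA4, held most of that control sum, with 3382 in control and 395 in Activin. A mean rebuilt from a fold change cannot be 0, so these means do not show that every marker was detected in both groups. Some were very low at 19 hpf, such as PAX3 at 0.57 in control and KRT8 (BL95816) at 2.09 in Activin. These shifts in markers accompany every result below, and their part in it was not tested.

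The comparison at 11 hpf asked how Activin-treated explants differed from control explants at the earlier time. The largest falls were in 4 genes named AHNAK, for a giant scaffold protein beneath the cell membrane, in ESRP1, in FJX1 and in 3 genes named GRHL1. The largest rise was that of CRB1, an apical membrane protein of the Crumbs family, at 2.77 ± 0.39. Of 64 genes 16 fell and 12 rose, and 36 were not called. The calls made up 43.8% of the genes studied, against 36.6% of all genes in the table. Lower calls stood at 25.0% against 24.6% of all genes, and higher calls at 18.8% against 12.0%. The median log2 fold change was 0.32, against 0.07 over all genes. Among calls of the genes studied 57.1% were lower, and this share was 70.8% when fold changes were centred on ribosomal protein genes, 40.7% under upper-quartile scaling and 26.5% under total-count scaling.

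At 19 hpf the same question gave a different balance. Cadherins and catenin-related genes now made up many of the rises, with FAT1 (BL11237) and PCDH18 (BL06533) at more than 5 on the log2 scale. CTNNAL1 (BL10550) and CTNNAL1 (BL18706) also lay above 5, at 5.61 ± 1.97 and 5.19 ± 2.12. Their control means were only 0.555 and 0.551, and the best measured CTNNAL1 (BL06398) lay at 3.66 ± 0.44. Of 57 genes 26 rose and 11 fell, and 20 were not called. These calls were 64.9% of the genes studied, against 46.4% of all genes. At a fold of 2 or more as well, 34 genes were called, where 44.3% of all genes were; at 11 hpf that rule called 27, against 35.6% of all genes. Higher calls stood at 45.6% against 18.7% of all genes and lower calls at 19.3% against 27.7%. The median was 0.99, against 0.07 over all genes. Of the calls 29.7% were lower, a share of 61.8% on ribosomal centring and 18.4% under total-count scaling. The median turned to -0.052 at 11 hpf and -0.055 at 19 hpf on ribosomal centring, so the balance of rises and falls over the whole group depends on the scaling.

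**Figure D1:**
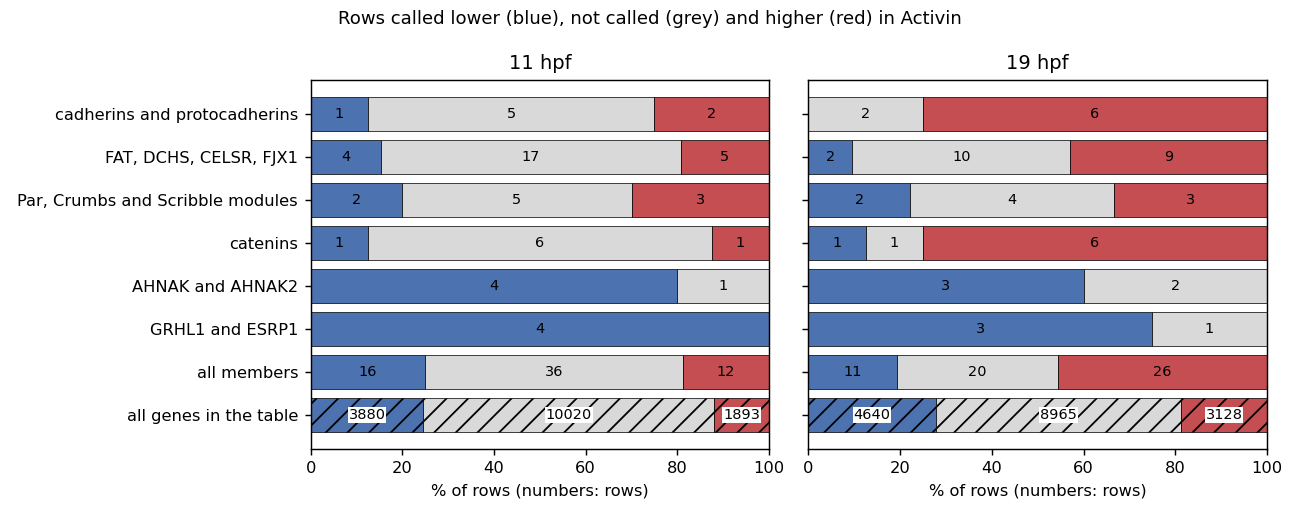
Share of genes (x axis, %) called lower (blue), not called (grey) or called higher (red) in Activin by role, tight junction scaffolds left out, with numbers of genes printed in the bars, at 11 hpf (left) and 19 hpf (right). The hatched bar gives all genes of the table; at 11 hpf 12 of 64 genes studied were higher and at 19 hpf 26 of 57.

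Whether the Activin effect itself differed between the times was tested on the 55 genes in both tables, by a Wald test of the difference of both fold changes with adjustment over 13528 genes. The difference was called for 23, 41.8%, against 16.8% of all genes. For 18 of them the log2 fold change was greater at 19 hpf, 32.7% against 10.1% of all genes, and for 5 it was smaller, 9.09% against 6.70%. On ribosomal centring 15 were called, of which 40.0% were smaller at 19 hpf in place of 21.7%. Of the 55 genes 10 were called higher at both times, 9 lower at both times and 1, FJX1, in opposite directions; over all genes these classes held 7.14%, 18.0% and 1.35%. Across the 35 genes with a mean of 100 or more at both times, Pearson's r between both fold changes was 0.75, against 0.78 over 5981 genes of that abundance. These correlations run across genes, which are not independent replicates.

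**Figure D2:**
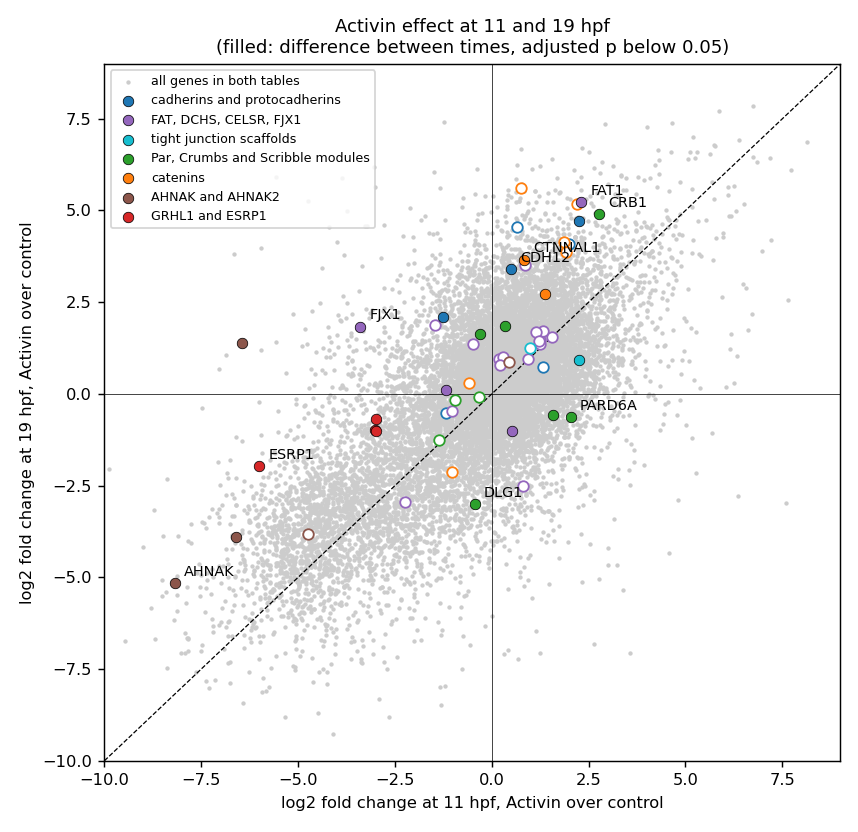
Log2 fold change of Activin over control at 11 hpf (x axis) and 19 hpf (y axis); grey points are all 13528 genes in both tables and coloured points the 55 genes studied, filled where the difference between times had an adjusted p below 0.05. Points above the dashed line of equality have the greater value at 19 hpf, as 45 of 55 do (81.8%, against 54.5% of all genes; 32 of 55 and 38.2% on ribosomal centring); FJX1 lies at -3.39 and 1.83.

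Cadherins and protocadherins rose at 19 hpf in 6 of 8 genes, and none fell, where 18.7% of all genes were called higher and 27.7% lower. CDH23, PCDH15 and PCDH18 each name 2 of these genes, which may not be independent measurements. On ribosomal centring 5 rose and 1, CDH18, fell. At 11 hpf 2 rose, 1 fell and 5 were not called, and these calls were 37.5%, near the 36.6% of all genes. CDH12 (BL02475), named for a classical cadherin of the vertebrate nervous system, had rebuilt means of 1271 normalized counts in control and 1791 in Activin at 11 hpf, a log2 fold change of 0.50 ± 0.35 that was not called. At 19 hpf its means were 429 and 4507, 10.5-fold higher in Activin at 3.39 ± 0.32 (adjusted p = 2.0e-25). The change between times was 2.90 ± 0.47 (adjusted p = 8.1e-08). The other cadherin of this kind with a mean above 100, CDH18 (BL08037), went the other way at 11 hpf, from 1089 to 479 at -1.18 ± 0.37, and lay at -0.52 ± 0.40 at 19 hpf, not called.

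CDH23 and PCDH15, which together form the tip links of vertebrate hair cells, both rose. CDH23 (BL24267) rose from 49.7 to 237 at 11 hpf, 4.77-fold. Its rise at 19 hpf, from 20.1 to 531, was 26.4-fold, and the fold change was greater at 19 hpf by 2.47 ± 0.82. A second gene named CDH23 (BL02432) was called higher at 19 hpf, with 2.29 in control and 53.9 in Activin, a control mean too low for a fold. PCDH15 (BL07703) was called higher at both times, at 1.99 ± 0.75 and 4.10 ± 0.91. The other PCDH15 (BL10585) lay at -1.27 ± 0.83 at 11 hpf, not called, and rose at 19 hpf, 2.09 ± 0.86, with a difference of 3.35 ± 1.20 between times. Its levels were low, with means from 17.1 to 72.6.

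PCDH18 (BL06533), a protocadherin of the delta class, was in the table for 19 hpf alone. Its rebuilt mean was 54.0 in control and 1966 in Activin, 36.4-fold higher at 5.19 ± 0.38 (adjusted p = 6.3e-41). The second PCDH18 (BL05800), with a mean of 23.1, lay at 0.73 ± 1.12 and was not called. On ribosomal centring the rise of PCDH15 was lost for BL07703 at 11 hpf and for BL10585 at 19 hpf, and the fall of CDH18 was lost under total-count and upper-quartile scaling. CDH18 was called lower at 19 hpf on ribosomal centring, at -1.57 (adjusted p = 2.4e-04), and CDH12 higher at 11 hpf under total-count and upper-quartile scaling, at 1.47 and 0.93. The differences between times of CDH23 (BL24267) and PCDH15 (BL10585) were not called on ribosomal centring either.

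FAT and Dachsous cadherins, CELSR cadherins and FJX1 made up the largest family. At 11 hpf 5 of 26 rose and 4 fell, and at 19 hpf 9 of 21 rose and 2 fell. Calls were 34.6% of the family at 11 hpf, near the 36.6% of all genes, and 52.4% at 19 hpf, against 46.4%. Higher calls alone were 19.2% and 42.9%, against 12.0% and 18.7% of all genes. On ribosomal centring 1 rose and 4 fell at 11 hpf, and 3 rose and 5 fell at 19 hpf. FJX1 (BL18444), named for the Golgi kinase that phosphorylates the cadherin repeats of FAT and Dachsous, moved in opposite directions. It fell at 11 hpf from 690 normalized counts to 65.6, 10.5-fold, at -3.39 ± 0.48 (adjusted p = 1.3e-11). At 19 hpf it rose from 443 to 1581, 3.57-fold, at 1.83 ± 0.34 (adjusted p = 4.0e-07). The difference of 5.23 ± 0.58 (adjusted p = 6.6e-16) kept its call under all 4 scalings, as did both single calls.

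DCHS1 (BL03720), named for a Dachsous cadherin that binds FAT4 in the mouse, lay at 437 and 632 at 11 hpf, 0.53 ± 0.43 and not called. It fell at 19 hpf from 3077 to 1532, 2.01-fold, at -1.01 ± 0.33. The change between times was -1.54 ± 0.54, called under all 4 scalings, although the fall at 19 hpf itself was lost under every scaling but ribosomal centring. CELSR2 (BL03136), of the core planar polarity cadherins, fell at 11 hpf from 7325 to 3209, 2.28-fold. Its means at 19 hpf were 4210 and 4568, 0.12 ± 0.32, with a 95% interval from -0.50 to 0.74. That value became -0.93 on ribosomal centring, a call for lower, and the fall at 11 hpf was lost under total-count and upper-quartile scaling. The change between times, 1.31 ± 0.47, was lost on ribosomal centring and under total-count scaling. CELSR3 (BL01655) was called at neither time, at 0.19 ± 0.47 and 0.95 ± 0.49; it was called higher at 19 hpf under every scaling but ribosomal centring (adjusted p from 7.5e-04 to 0.032), and at 11 hpf under total-count scaling, as was DCHS1.

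FAT1 was the name of 7 genes and FAT4 of 15, and no source used here says whether each is a whole gene or part of one. The FAT1 genes had unlike values. FAT1 (BL11237) rose at both times, from 11.3 to 56.3 at 11 hpf and from 25.0 to 945 at 19 hpf, the latter 37.7-fold at 5.24 ± 0.44 (adjusted p = 5.2e-31). FAT1 (BL08693) had means of 13062 and 16087 at 11 hpf, not called at 0.30 ± 0.33, and rose 1.99-fold at 19 hpf, from 7219 to 14375, a rise of 0.99 that became -0.055 on ribosomal centring. FAT1 (BL00337) fell 2.05-fold at 11 hpf, a call lost under total-count and upper-quartile scaling, and FAT1 (BL04739) rose 11.4-fold at 19 hpf from a control mean of 5.91. For BL11237 the fold change was greater at 19 hpf by 2.93 ± 1.04, but this difference and the rise at 11 hpf were lost on ribosomal centring.

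Genes named FAT4 were called in both directions, and the called rises were modest. Of 14 at 11 hpf 4 rose and 1 fell, and of 11 at 19 hpf 5 rose and 1 fell. These calls were 35.7% and 54.5%, against 36.6% and 46.4% of all genes. The 4 that rose at 11 hpf lay between 1.21 and 1.56, and the 5 at 19 hpf between 1.35 and 1.72; of these calls only FAT4 (BL11778) at 11 hpf held on ribosomal centring, where 1 was higher at 11 hpf and 0 at 19 hpf. FAT4 (BL11778) rose 2.49-fold at 11 hpf, from 421 to 1049, and 3.30-fold at 19 hpf, from 189 to 623. FAT4 (BL17796) was the gene that fell, at both times, from 85.4 to 17.9 and from 171 to 22.2, the latter 7.70-fold at -2.95 ± 0.65; the fall at 11 hpf was lost under total-count scaling. The FAT4 genes not called lay between -3.51 (BL14664) and 1.24 (BL36386) at 11 hpf and between -2.51 (BL96774) and 1.69 (BL33433) at 19 hpf. A difference between times was called for 0 of the 10 FAT4 genes with values at both.

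Of the tight junction scaffolds, MAGI2 (BL23901), named for a multi-PDZ scaffold at cell contacts, rose at both times. It went from 811 normalized counts to 3834 at 11 hpf, 4.73-fold at 2.24 ± 0.35 (adjusted p = 1.8e-09), and from 1460 to 2753 at 19 hpf, 1.89-fold at 0.91 ± 0.31. The fold change was smaller at 19 hpf by 1.33 ± 0.47, a call lost under upper-quartile scaling (adjusted p = 0.054). At 19 hpf MAGI2 lost its call on ribosomal centring, where its value turned to -0.13.

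Par, Crumbs and Scribble genes were called in both directions, 3 higher and 2 lower of 10 at 11 hpf and 3 higher and 2 lower of 9 at 19 hpf. These calls were 50% and 55.6%, against 36.6% and 46.4% of all genes. At 11 hpf calls of apical and basolateral genes did not divide by direction, as DLG5, among the basolateral genes below, rose. At 19 hpf the called apical genes CRB1, PARD3 and PARD6A (BL97087) were higher, and the called basolateral genes DLG1 and LLGL2 lower. This division depends on the scaling, as ribosomal centring called PARD6A (BL16212) and PARD6B lower at 19 hpf. CRB1 (BL02538) rose from 145 normalized counts to 987 at 11 hpf, 6.81-fold (adjusted p = 2.0e-11). At 19 hpf it rose from 108 to 3256, 30.1-fold, at 4.91 ± 0.35 (adjusted p = 2.3e-42). The difference between the fold changes was 2.14 ± 0.53 (adjusted p = 8.7e-04). PARD3 (BL09013), the scaffold of the apical Par complex, was not called at 11 hpf, with 1133 and 1428 at 0.33 ± 0.36, but was called higher there under total-count scaling. It rose 3.59-fold at 19 hpf, from 574 to 2061 at 1.84 ± 0.33 (adjusted p = 1.4e-07), a change of 1.51 ± 0.49 between times that was lost on ribosomal centring.

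The PARD6 genes, whose product joins PARD3 and atypical protein kinase C, divided by time. PARD6A (BL16212) rose 4.13-fold at 11 hpf, from 47.5 to 196, and stood at 292 in control and 189 in Activin at 19 hpf, not called, but called lower on ribosomal centring at -1.68 (adjusted p = 5.5e-04). PARD6A (BL97087) stood at 1252 and 1021 at 11 hpf, not called, and rose 3.09-fold at 19 hpf, from 66.7 to 206, a call lost on ribosomal centring. The changes between times were -2.67 ± 0.71 (adjusted p = 0.0023) and 1.92 ± 0.65 (adjusted p = 0.024), the second lost on ribosomal centring. PARD6B (BL20978) was called at neither time, with 95% intervals from -1.04 to 0.37 and from -0.72 to 0.57; at 19 hpf it was called lower on ribosomal centring and, at 0.78, higher under total-count scaling.

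Among basolateral genes DLG1 (BL14062), named for the Discs large scaffold, changed most. It stood at 790 normalized counts in control and 583 in Activin at 11 hpf, -0.44 ± 0.39 and not called. At 19 hpf it fell from 11110 to 1383, 8.03-fold at -3.01 ± 0.31 (adjusted p = 1.0e-20), and the change between times was -2.57 ± 0.50 (adjusted p = 1.1e-05). The control mean was higher at 19 hpf than at 11 hpf, on scales normalized separately. DLG5 (BL20608) rose 2.99-fold at 11 hpf, from 150 to 448, and stood at 845 and 568 at 19 hpf, not called, a change of -2.15 ± 0.57 between times. On ribosomal centring DLG5 was called lower at 19 hpf, at -1.62 (adjusted p = 1.9e-05).

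LLGL2 (BL00236), of the Lethal giant larvae family, fell at both times. Its rebuilt mean went from 41503 to 16027 at 11 hpf, -1.37 ± 0.33, and from 27430 to 11397 at 19 hpf, -1.27 ± 0.30. The difference of 0.11 ± 0.44 was not called. SCRIB (BL21167) fell 1.94-fold at 11 hpf, from 4381 to 2256 at -0.96 ± 0.34 (adjusted p = 0.015), and lay at -0.17 ± 0.32 at 19 hpf, where ribosomal centring gave a call for lower at -1.22 (adjusted p = 3.5e-04). The fall of SCRIB at 11 hpf was lost under every scaling but ribosomal centring, with 0.02 under total-count scaling, and that of LLGL2 was lost under total-count scaling at both times.

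Catenins link cadherins to the cytoskeleton, and their genes went separate ways. CTNNA1 (BL14813), named for alpha-catenin, which binds actin, fell at both times, from 1186 to 577 at 11 hpf, 2.06-fold, and from 447 to 102 at 19 hpf, 4.38-fold at -2.13 ± 0.46 (adjusted p = 1.4e-05). CTNNA2 (BL15517), a second alpha-catenin, had means of 13926 and 9309 at 11 hpf and of 3519 and 4298 at 19 hpf, and was called at neither time. Its 95% intervals ran from -1.22 to 0.06 and from -0.31 to 0.89, and on ribosomal centring the value at 19 hpf became -0.76, a call for lower, as was its -0.95 at 11 hpf; total-count and upper-quartile scaling called it higher at 19 hpf, at 1.15 and 0.83. CTNND2 (BL18261), a delta-catenin that is best known from neurons in mammals, rose 2.57-fold at 11 hpf, from 1672 to 4295, and 6.55-fold at 19 hpf, from 275 to 1802. The rise of CTNND2 held under all 4 scalings at both times, but its greater fold change at 19 hpf, by 1.35 ± 0.48, was lost on ribosomal centring and under total-count scaling, and the fall of CTNNA1 at 11 hpf held on ribosomal centring alone.

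CTNNAL1, an alpha-catenin relative, was the name of 5 genes. None was called at 11 hpf, and all 5 rose at 19 hpf, where 18.7% of all genes were called higher. Under total-count scaling 3 were called higher at 11 hpf. The difference between times was called for 1 of the 5, with adjusted p from 0.16 to 0.54 for the others. For the best measured of them, CTNNAL1 (BL06398), the means were 125 and 223 at 11 hpf and 50.2 and 636 at 19 hpf, the latter 12.7-fold higher at 3.66 ± 0.44 (adjusted p = 9.8e-16). The gene with the called difference was this one, at 2.83 ± 0.65 (adjusted p = 3.1e-04). The other four lay between 3.86 and 5.61 at 19 hpf, each with a control mean under 3 normalized counts, so that no fold is given; 3 of them lost the call on ribosomal centring.

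The largest fall at each time was that of a gene named AHNAK. AHNAK (BL14054) fell at 11 hpf from 6059 normalized counts to 20.8, and its value of -8.19 ± 0.42 had the smallest adjusted p of the table (4.1e-81). At 19 hpf it fell from 13193 to 371, 35.6-fold at -5.15 ± 0.35. AHNAK (BL07477) fell 96.4-fold at 11 hpf, from 7549 to 78.3, and 14.8-fold at 19 hpf, from 3137 to 212. AHNAK (BL01950) fell 26.7-fold at 11 hpf, from 25715 to 962, and 14.2-fold at 19 hpf, from 21956 to 1549. All these falls held under all 4 scalings.

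The falls of AHNAK were smaller at 19 hpf for BL14054, by 3.03 ± 0.54 (adjusted p = 1.5e-06), and for BL07477, by 2.70 ± 0.64 (adjusted p = 5.4e-04). For BL01950 the difference of 0.92 ± 0.51 was not called. The fourth gene, AHNAK (BL14846), was scarce: it fell at 11 hpf from 93.7 to 1.07, and stood at 7.07 and 18.5 at 19 hpf, not called at 1.39 ± 1.56. Its difference between times, 7.84 ± 1.93 (adjusted p = 9.0e-04), rests on those low means. AHNAK2 (BL04369) was called at neither time, at 0.45 ± 0.86 and 0.87 ± 0.98.

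The regulators of the epithelial state fell at 11 hpf without exception, 4 of 4, where 24.6% of all genes were called lower. ESRP1 (BL17279), which in vertebrates directs epithelial splice forms, went from 83461 normalized counts in control to 1308 in Activin, 63.8-fold lower at -6.00 ± 0.41 (adjusted p = 4.6e-47). Its fall at 19 hpf was from 31211 to 7952, 3.93-fold at -1.97 ± 0.33 (adjusted p = 1.1e-08). The difference of 4.02 ± 0.52 between times (adjusted p = 4.2e-12) was the second most significant among the genes studied, after that of FJX1.

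The 3 genes named GRHL1 gave nearly equal fold changes. At 11 hpf they fell from 22011 to 2785 (BL22412), from 7258 to 893 (BL19738) and from 3040 to 386 (BL02586), at -2.98 ± 0.34, -3.02 ± 0.35 and -2.98 ± 0.35. At 19 hpf their control means were 2064, 639 and 171, and the fold changes -1.01 ± 0.35, -0.99 ± 0.40 and -0.68 ± 0.56. The first pair were called lower and BL02586 was not, though it was on ribosomal centring. All 3 fold changes were nearer to 0 at 19 hpf, by 1.98 ± 0.49, 2.03 ± 0.53 and 2.29 ± 0.66. The falls at 11 hpf held under all 4 scalings, while those at 19 hpf kept their call, among the 4 scalings, under ribosomal centring alone; 2 of the 3 differences between times, those of BL19738 and BL02586, were lost on ribosomal centring. Reads shared between genes of the same name could move counts among them, and these 3 genes may not be independent measurements.

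**Figure D3:**
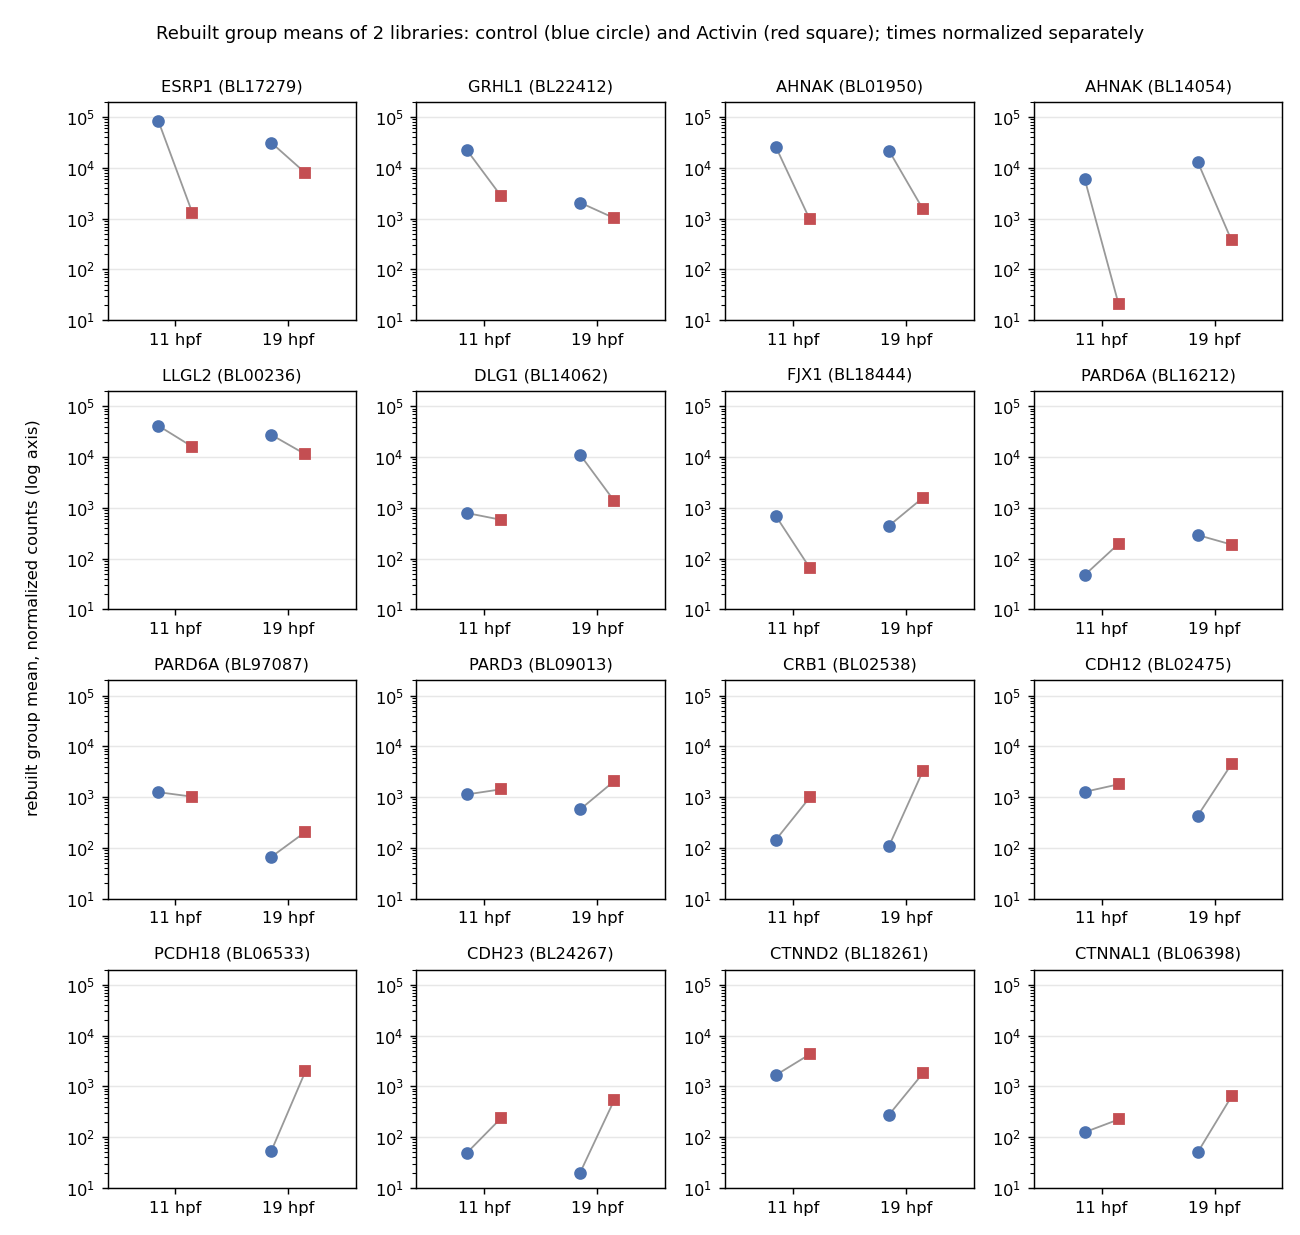
Rebuilt group means in normalized counts (y axis, log scale) for 16 genes at 11 and 19 hpf, as blue circles for control and red squares for Activin; each point stands for 2 libraries and has no error bar, and the times were normalized separately. ESRP1 and AHNAK lie lower in Activin at both times, CRB1 and CDH23 higher at both, and FJX1 lower at 11 hpf (65.6) and higher at 19 hpf (1581).

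Related genes outside the families above were called in both directions. Of 40 genes found under 31 of 69 names for other junction, polarity and epithelial transition proteins, 8 rose and 7 fell at 11 hpf, and 6 rose and 8 fell at 19 hpf. These calls were 37.5% of the list at 11 hpf, near the 36.6% of all genes, and 35.0% at 19 hpf, below the 46.4% of all genes. SNAI2 (BL20923), a repressor of cadherin genes in vertebrates, rose from 61.7 to 1298 normalized counts at 11 hpf and from 130 to 3255 at 19 hpf, 4.39 ± 0.54 and 4.64 ± 0.34. ZEB2 (BL16274), another such repressor, rose by 1.70 ± 0.54 and by 3.87 ± 0.35. PRICKLE1 (BL10541), a core planar polarity protein, fell from 19139 to 433 at 11 hpf, -5.46 ± 0.39, and from 7951 to 719 at 19 hpf, -3.47 ± 0.38. PRICKLE2 (BL14367) stood at 1666 and 1833 at 11 hpf, not called, and rose from 571 to 1719 at 19 hpf. A second PRICKLE2 (BL17295) was called at neither time.

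PVRL4 (BL08550), named for a nectin, fell at both times, from 69.8 to 3.24 and from 1024 to 19.2, the latter at -5.74 ± 0.43. Beta-catenin, CTNNB1 (BL22525), which joins classical cadherins to alpha-catenin, was called at neither time, at -0.39 ± 0.32 and 0.26 ± 0.30. VANGL1 (BL06667), another core planar polarity gene, was not called at -0.45 ± 0.33 and 0.36 ± 0.31. These examples were chosen after their values were seen.

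**Figure D4:**
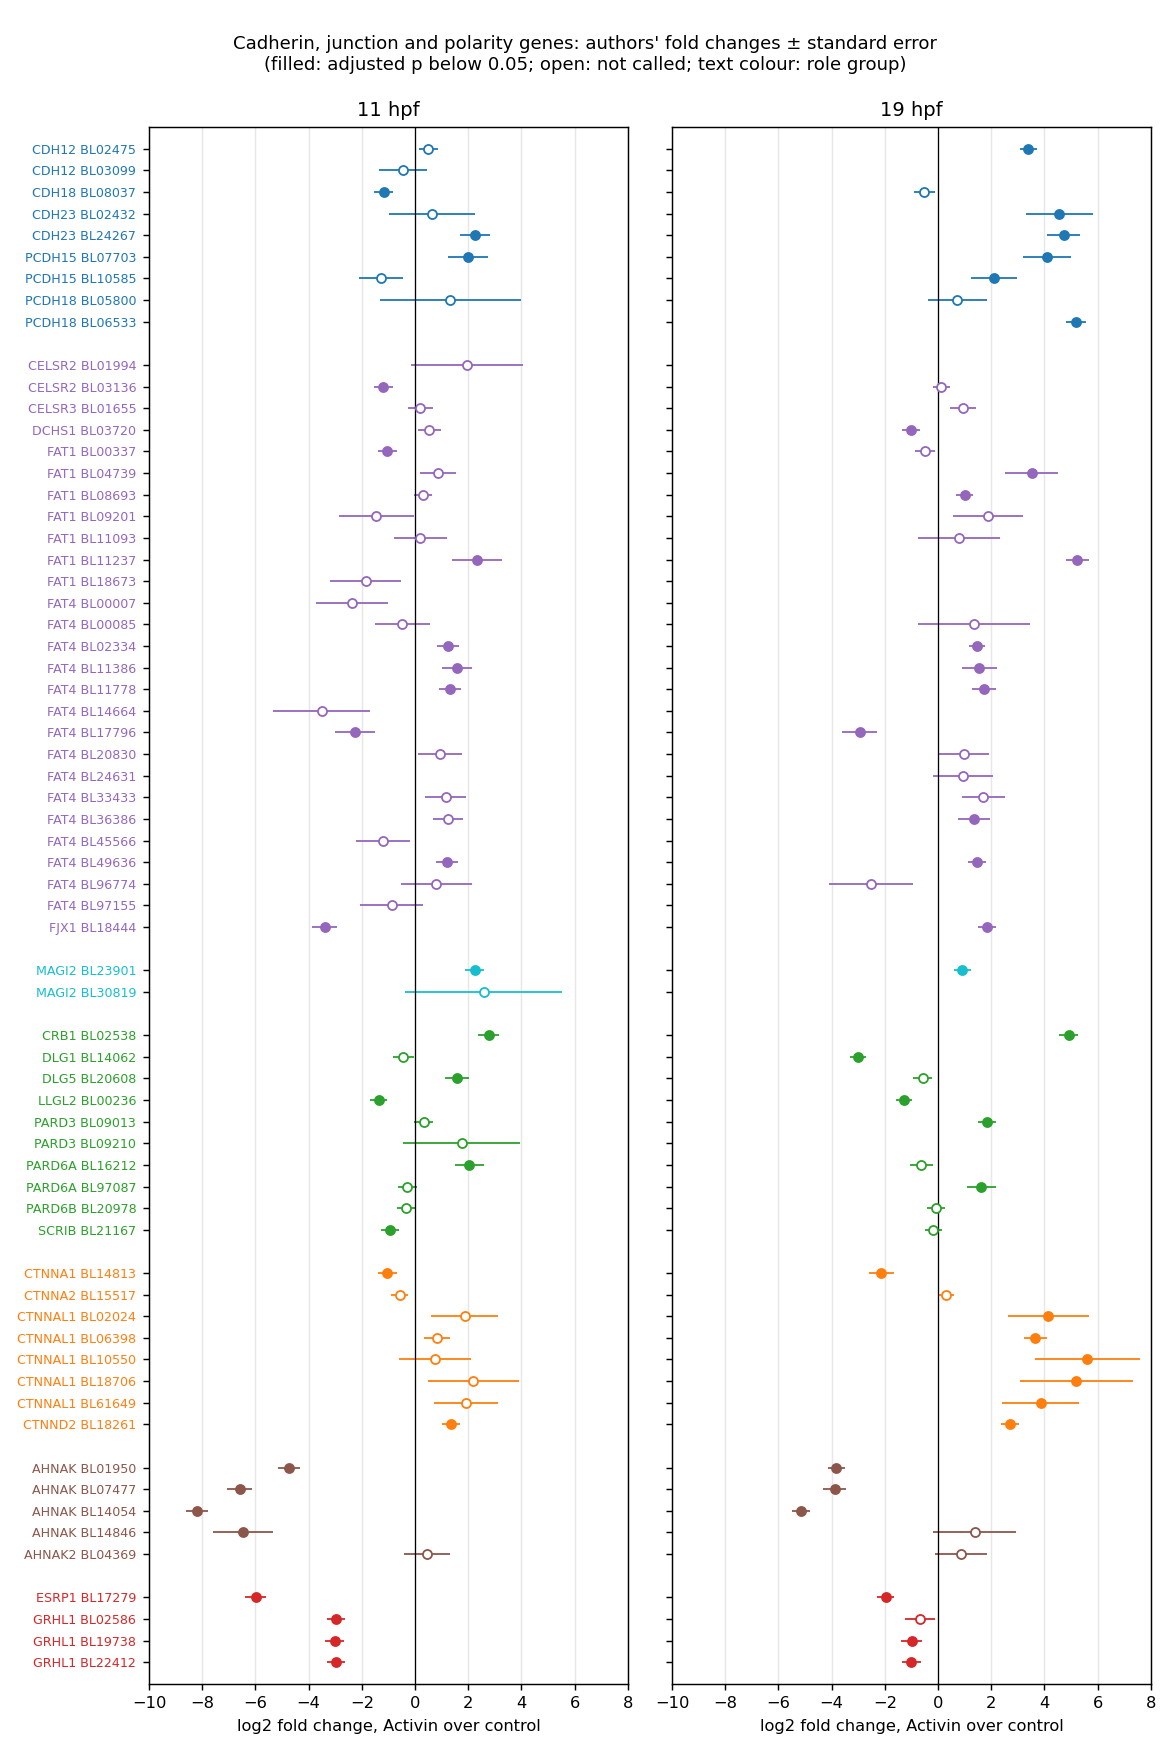
Log2 fold change of Activin over control (x axis) with the authors' standard error as bars for the genes studied, grouped and coloured by role, at 11 hpf (left) and 19 hpf (right). Filled circles are genes with an adjusted p below 0.05; AHNAK, ESRP1 and GRHL1 at the bottom lie left of 0 at 11 hpf, and 6 of 8 cadherins and protocadherins at the top are filled on the right at 19 hpf.

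Calls were more frequent among abundant genes. Of the genes with a mean of 100 or more, 24 of 36 were called at 11 hpf and 27 of 37 at 19 hpf, against 55.6% and 63.1% of all genes that abundant. Of those under 100, 4 of 28 were called at 11 hpf, against 22.3% of all such genes, and 10 of 20 at 19 hpf, against 30.1%. At a mean under 20, the median standard error over all genes corresponded to a 95% limit of 8.83-fold at 11 hpf and 10.7-fold at 19 hpf. For the 15 and 9 genes studied at that level, their own errors gave limits from 4.95-fold to 54.6-fold at 11 hpf and from 5.90-fold to 17.9-fold at 19 hpf.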

How the data were processed

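RNA was sequenced from 8 poly(A) libraries in 4 groups, per the labels. Per the submitters' processing notes, HISAT2, featureCounts and edgeR were used; their versions, the genome assembly and the gene models are not given in the sources used here, nor is the tool behind the final values. The authors deposited 1 table per time. Per the file headers, its mean is a signal, the normalized count over libraries. Fold changes and errors were deposited as log2 values. A Wald score was deposited too, and is their ratio. Raw and adjusted p-values were deposited, the latter matching Benjamini-Hochberg over all rows given.

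The tables hold no counts per library, so the planned edgeR quasi-likelihood fit was not run and the authors' values were used, as planned for that case. Rebuilt group means, the Wald test of the difference between times and all adjustments were computed with Python 3.11.15, pandas 2.3.3 and scipy 1.17.1. The difference test was tried on simulated data, with noise drawn from the deposited standard errors. Such a trial cannot show whether those errors, from 2 libraries per group, are right. Folds are given where the lower rebuilt mean was at least 3 normalized counts. Alternatives were 4 scalings (centring on 62 ribosomal protein genes or on genes with a mean of 100 or more, total-count and upper-quartile scaling), a mean of 20 or more, an adjusted p below 0.01, a 2-fold change, and the most abundant gene per name. The genes, role groups and lists were chosen with earlier results of these data known. Named were, per role and time, the 3 largest called rises and falls, the most abundant gene, genes called between times, and fixed key genes; several genes share a name, so identifiers are printed. The reference gene table holds another assembly and was not used. The values of 1 gene are not reported here, although it is part of the counts.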

Additional observations from a re-analysis of the deposited data

Results flagged for a closer look

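For 23 of the 55 genes in both tables the Activin effect differed between the times by the Wald test of the difference, with a Benjamini-Hochberg adjusted p below 0.05 over 13528 genes, where 16.8% of all genes passed. Values are the log2 fold change at 19 hpf minus that at 11 hpf. In the epithelial regulators the fold change was negative at both times and nearer to 0 at 19 hpf. The difference was 4.02 for ESRP1 and, for GRHL1, 1.98 (BL22412), 2.03 (BL19738) and 2.29 (BL02586). AHNAK differed by 3.03 (BL14054), 2.70 (BL07477) and 7.84 (BL14846). FJX1 differed by 5.23, FAT1 (BL11237) by 2.93, CELSR2 (BL03136) by 1.31 and DCHS1 by -1.54. Among cadherins the values were 2.90 for CDH12 (BL02475), 2.47 for CDH23 (BL24267) and 3.35 for PCDH15 (BL10585). Polarity genes went both ways, with 2.14 for CRB1, 1.51 for PARD3 (BL09013) and 1.92 for PARD6A (BL97087), but -2.57 for DLG1, -2.15 for DLG5 and -2.67 for PARD6A (BL16212). CTNNAL1 (BL06398) differed by 2.83, CTNND2 by 1.35 and MAGI2 (BL23901) by -1.33. Of the 18 greater values 9 and of the 5 smaller values 4 kept their call under all 4 scalings.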

How the results depend on the processing

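Scalings moved every log2 fold change by a constant per time: by -0.37 and -1.05 on ribosomal centring at 11 and 19 hpf, by 0.20 and 0.26 on well measured genes, by 0.98 and 0.86 under total-count and by 0.44 and 0.54 under upper-quartile scaling. On ribosomal centring 7 genes were higher at 11 hpf, 13 higher and 21 lower at 19 hpf, and 15 differed between times, 9 of them greater at 19 hpf; the medians were -0.052 and -0.055. Under total-count scaling 25 were higher and 9 lower at 11 hpf and 7 lower at 19 hpf, with medians of 1.29 and 1.85; the upper-quartile median at 19 hpf was 1.535. At an adjusted p below 0.01, 7 genes were higher at 11 hpf, 17 higher at 19 hpf, and 14 differed between times, 11 greater and 3 smaller. With 1 gene per name, 16 were called at 11 hpf (7 higher, 9 lower), 20 at 19 hpf (13 and 7) and 15 between times, 11 of them greater. Signs turned for SCRIB at 11 hpf (0.019, total count), and at 19 hpf for PARD6B (0.781, total count) and, on ribosomal centring, CELSR2 (-0.931), FAT1 (BL08693) (-0.055), CTNNA2 (-0.760) and MAGI2 (-0.134). Of 1186 values of 59 named genes under these alternatives, 1063 kept their call; 41 of these were uncalled values that changed sign. This total includes alternatives that could not change a call. Keeping 1 gene per name left each adjusted p as it was, and the stricter p and 2-fold rules cannot alter an uncalled value. The total therefore overstates how well calls held under the scalings, of which ribosomal centring kept the fewest. Apart from the scalings, whose construction shifts every fold change, and the stricter or smaller selections, the cause was not tested. Calls kept under all 4 scalings numbered 7 of 12 higher and 9 of 16 lower at 11 hpf, and 13 of 26 and 7 of 11 at 19 hpf. No paired analysis was possible because the tables hold no values per library; for the same reason leaving out replicates and a second count tool were not run. Depth per library is unknown.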

Other observations

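Of the genes studied, 9 were in the table for 11 hpf alone and 2 in that for 19 hpf alone. Of the former, FAT4 (BL14664) had a rebuilt mean of 17.2 normalized counts in control and 1.51 in Activin, at -3.51 ± 1.81 in the authors' deposited table, and was not called. FAT4 (BL00007) stood at 26.9 and 5.20, CDH12 (BL03099) at 35.1 and 25.8, and FAT1 (BL18673) at 20.1 and 5.55, and none of them was called. Scarcest at 11 hpf were CELSR2 (BL01994), PARD3 (BL09210) and MAGI2 (BL30819), with means of 5.15, 4.60 and 2.86. None of the 9 reached a mean of 100, and PCDH18 (BL06533), with a mean of 1010 at 19 hpf, was the abundant exception among the 2 found at the later time alone.

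A pair of genes named FAT4, BL02334 and BL49636, had nearly equal values at 11 hpf in the authors' deposited table, with means of 984 and 983 and fold changes of 1.25 ± 0.42 and 1.21 ± 0.42. At 19 hpf their means were 2598 and 1296, with fold changes of 1.47 ± 0.31 and 1.45 ± 0.34. Whether they share reads was not tested.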
